A study of Homo sapiens with 12 samples.

Results

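The genes described here are NFE2L2, which encodes the transcription factor NRF2, KEAP1, which encodes its repressor, and 8 genes commonly read as NRF2 targets, namely NQO1, HMOX1, GCLC, GCLM, TXNRD1, SRXN1, OSGIN1 and GPX2. These 10 genes were taken by symbol from the 63086 genes of the deposited table, and each symbol matched 1 row. Of these, 9 (all but GPX2) averaged 10 normalised counts or more over the 12 libraries and so belonged to the 15987 genes tested, and each of the 9 passed that level in every line. The study asked how loss of TIMP1, which encodes the tissue inhibitor of metalloproteinases 1, alters transcription, and for this RNA of 4 lines of the human pancreatic carcinoma line MIA PaCa-2 had been sequenced, with 3 libraries per line. WT cells were not modified. CRISPR Control was a line that had been through CRISPR-Cas9 editing and kept only a silent point mutation, so that its TIMP1 protein sequence was that of WT. TIMP1 KO 1 and TIMP1 KO 2 were knockout clones made with guide RNAs against different regions of exon 4 of TIMP1. All lines grew in RPMI 1640 with serum, and the labels name no oxidant or other treatment. KO 1 and KO 2 are each 1 clone and CRISPR Control is 1 line, so the genotype and the history of a line cannot be told apart. The term deficient lines stands for KO 1 together with KO 2, and competent lines for WT together with CRISPR Control.

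NRF2 is a transcription factor that binds, with a small MAF partner, to the antioxidant response element (ARE) of its target genes. In unstressed cells KEAP1 bridges NRF2 to the CUL3 ubiquitin ligase and NRF2 is degraded, and electrophiles or oxidants act on cysteines of KEAP1 and let NRF2 accumulate, so NRF2 is controlled mainly at the level of protein. BACH1 occupies the same element and represses HMOX1 and related genes. In pancreatic carcinoma the target genes help to supply glutathione, reduced thioredoxin and NADPH to the tumour cell. The data hold RNA only, and neither the NRF2 protein nor its position in the cell was measured.

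The libraries held 26908701 to 36093563 reads in genes. The targeted gene TIMP1 gave normalised counts (read counts scaled by the size factor of their library) of 3837, 3290.2 and 3532 in WT, 2285, 2826 and 2959 in CRISPR Control, and, among the clones, 1562, 1624 and 1613 (KO 1) and 1136, 1192 and 1155 (KO 2). All 6 libraries of the deficient lines lay below all 6 of the competent lines, and CRISPR Control also lay below WT with a log2 fold change of -0.41 (adjusted p 0.000769) by limma. Keratin genes KRT8, KRT18 and KRT19, EPCAM, CDH1 and the mesenchymal genes VIM and ZEB1 were expressed in the libraries, whereas the leukocyte genes PTPRC and CD3E had means of 2.58 and 0.138 normalised counts. The summed level of the 5 epithelial markers ran from 56497 to 72652 in CRISPR Control and from 174138 to 223401 in the other 9 libraries. The sum of the 4 fibroblast markers ran from 7706 to 10109 in CRISPR Control, 19052 to 20405 in WT and 28900.1 to 64825 in the deficient lines, with DCN at a mean of 0.388. Single markers moved otherwise. Per kilobase of exon, mean CDH1 was 196 (WT), 234 (CRISPR Control), 21.1 (KO 1) and 14.0 (KO 2). EPCAM was 778, 772, 838 and 535 in that order, whereas KRT8, KRT18 and KRT19 were lowest in CRISPR Control. COL1A2 was 760, 0.791, 0 and 0, whereas COL1A1 was 1276, 985, 6285 and 3757. The 3 leukocyte markers summed to 37.3 to 49.5 in the competent lines, 76.0 to 88.6 in KO 1 and 158 to 173 in KO 2, most of it CD14, and the 2 endothelial markers to between 0 and 24.2. The part of these shifts in the results below was not tested. In bulk RNA of a cultured line, fewer expressing cells and less RNA per cell cannot be told apart. Libraries of a line are titled as biological replicates, and since nothing else tells whether they were separate cultures, p-values measure the spread between these libraries only.

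Promoters were read to see which of the 10 genes hold the core of the ARE near the transcription start. RefSeq windows of GRCh38.p14 from 250 bases before to 50 bases after a start were given for 9 of the genes, 12 windows in all, and HMOX1 was not among them. The core was searched as TGACNNNGC on both strands. It was present in 5 of the 12 windows, of KEAP1, GCLM, TXNRD1 (2 windows) and GPX2, and in 13.3% of all 35116 windows. The windows of the tested genes that hold it are shown because all 3 genes differed among the lines by the limma F test. So did each of the 9 tested genes of the set, beside 80.4% of all tested genes. They run 5′ to 3′ on the strand of the gene, with matches to the core in capitals, and a match read as GCNNNGTCA lies on the opposite strand.
KEAP1: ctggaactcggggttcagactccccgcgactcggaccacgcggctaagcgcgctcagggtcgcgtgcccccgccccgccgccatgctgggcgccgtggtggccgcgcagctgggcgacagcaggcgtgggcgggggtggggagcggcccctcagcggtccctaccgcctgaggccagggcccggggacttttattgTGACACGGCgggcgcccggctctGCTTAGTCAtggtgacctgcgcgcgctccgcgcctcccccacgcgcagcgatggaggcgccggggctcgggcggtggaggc
GCLM: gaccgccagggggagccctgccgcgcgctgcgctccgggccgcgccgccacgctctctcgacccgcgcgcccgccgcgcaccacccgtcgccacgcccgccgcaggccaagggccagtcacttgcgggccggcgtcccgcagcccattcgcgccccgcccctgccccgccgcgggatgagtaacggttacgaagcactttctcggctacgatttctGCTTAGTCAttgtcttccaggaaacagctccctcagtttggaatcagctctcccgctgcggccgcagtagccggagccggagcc
TXNRD1, upstream start: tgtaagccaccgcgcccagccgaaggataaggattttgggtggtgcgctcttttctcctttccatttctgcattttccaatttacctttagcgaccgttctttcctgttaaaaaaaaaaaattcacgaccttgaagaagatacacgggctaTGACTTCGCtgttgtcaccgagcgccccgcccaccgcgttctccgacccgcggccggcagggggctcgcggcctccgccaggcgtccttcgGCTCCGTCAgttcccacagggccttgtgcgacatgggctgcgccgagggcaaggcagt
TXNRD1, downstream start: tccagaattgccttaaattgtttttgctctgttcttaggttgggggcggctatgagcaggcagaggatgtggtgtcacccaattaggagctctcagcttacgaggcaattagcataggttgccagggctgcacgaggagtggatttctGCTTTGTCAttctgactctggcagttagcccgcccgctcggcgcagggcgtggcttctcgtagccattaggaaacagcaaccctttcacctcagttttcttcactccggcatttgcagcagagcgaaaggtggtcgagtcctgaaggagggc
The KEAP1 window is chr19:10502722-10503021 (minus strand), the GCLM window chr1:93909381-93909680 (minus strand), and the TXNRD1 windows are chr12:104215529-104215828 and chr12:104286782-104287081 (plus strand). Counted from the first transcribed base as 0, matches began at -54 and -31 in KEAP1, at -34 in GCLM, at -99 and -8 in the upstream TXNRD1 window and at -102 in the downstream window. The matches in KEAP1 at -31 and in GCLM at -34 had the same letters. A match is a run of letters and not a measured binding site, and a window without one says nothing of elements farther away.

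Across the 4 lines, the members of this set were led by a rise in the CRISPR Control line. Of the 9 tested genes, 8 differed between CRISPR Control and WT by limma with Benjamini-Hochberg adjustment over all tested genes, against 53.4% of all tested genes. Higher in CRISPR Control were 6 of them (NFE2L2, NQO1, HMOX1, GCLC, TXNRD1 and OSGIN1), beside 27.2% of all tested genes, and lower were 2 (KEAP1 and SRXN1), beside 26.3%. GCLM did not pass the test. The median log2 fold change of the 9 genes was 0.51 and that of all tested genes 0.01.

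In the deficient lines the set moved less and in mixed directions. KO 1 differed from WT in 6 of the 9 genes (35.5% of all tested genes), with NFE2L2 alone higher (18.0%) and NQO1, HMOX1, GCLM, TXNRD1 and OSGIN1 lower (17.5%), and the median of the 9 log2 fold changes was -0.24 against 0.00 for all tested genes. KO 2 differed from WT in 5 of the 9 (55.0%), of which NFE2L2, TXNRD1 and OSGIN1 were higher (27.1%) and HMOX1 and GCLM lower (27.9%). For KO 2 the share of the set that passed the test was thus near the share of all genes, and its median was 0.02 against -0.01. These comparisons share the WT libraries.

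**Figure D1:**
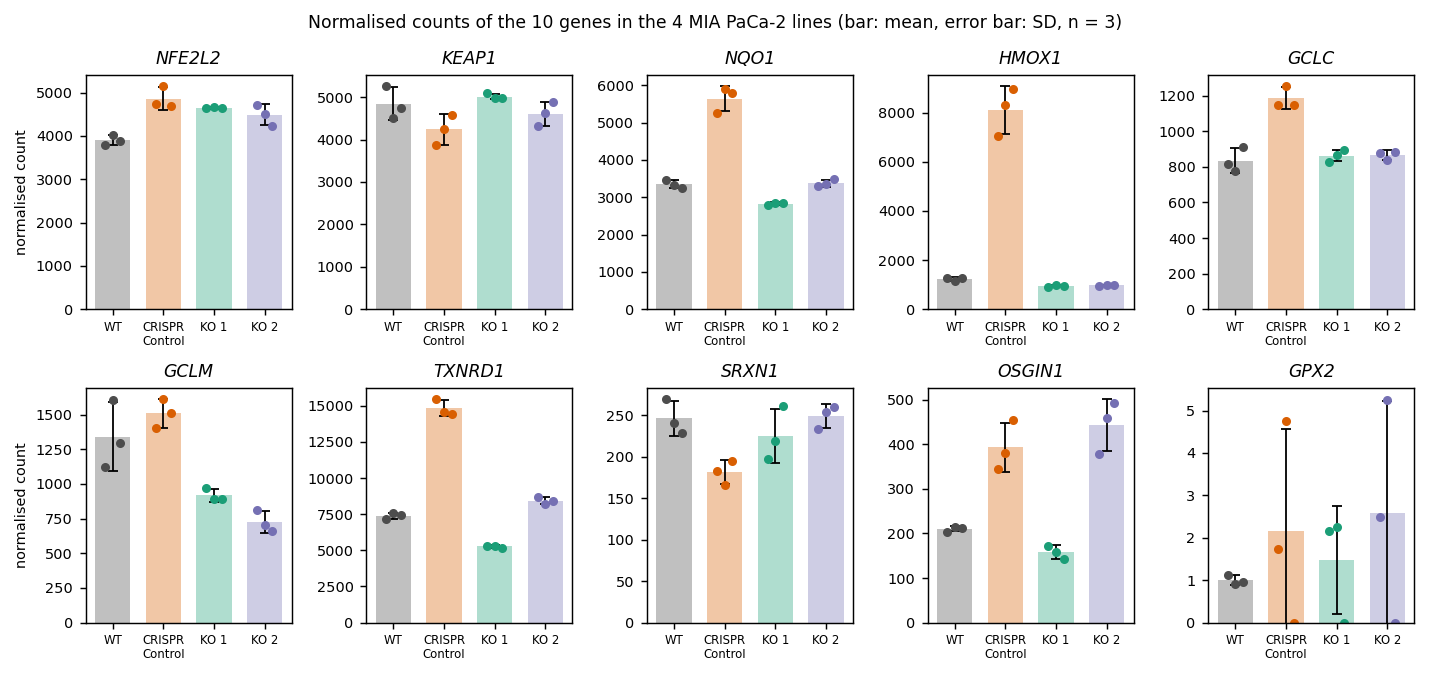
Normalised counts (y axes, each from 0) of the 10 genes in each library of the 4 lines, with points for libraries, bars for line means and error bars for SD (n = 3). HMOX1, NQO1, GCLC and TXNRD1 are highest in every CRISPR Control library, GCLM is lowest in the deficient lines, OSGIN1 is high in CRISPR Control and KO 2, and GPX2 stays at a few counts.

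NFE2L2 (ENSG00000116044.17, chr2:177218667-177392756, minus strand, GRCh38) was lowest in WT. It gave normalised counts of 3796, 4028 and 3879.6 in WT, 4747, 5158 and 4680.2 in CRISPR Control, and, among the clones, 4634, 4675 and 4634 (KO 1) and 4723, 4499.7 and 4234 (KO 2). The 3 WT libraries lay below the 9 others, which overlapped among themselves except that CRISPR Control lay above KO 1. Relative to WT the log2 fold change was 0.32 (adjusted p 0.000564, SE 0.07) in CRISPR Control, 0.25 (adjusted p 0.00583, SE 0.07) in KO 1 and 0.20 (adjusted p 0.0159, SE 0.07) in KO 2 by limma. The call for KO 2 was lost without WT replicate 1 (adjusted p 0.0544) and without KO 2 replicate 1 (adjusted p 0.0718). None of the 3 edited lines differed from another past the threshold, with log2 fold changes of -0.06 (KO 1 against CRISPR Control), -0.12 (KO 2 against CRISPR Control) and -0.05 (KO 2 against KO 1) by limma. The annotated gene spans several neighbours on the opposite strand, HNRNPA3 among them, and because the strand setting of the counting is not stated their reads could be counted with it.

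KEAP1 (ENSG00000079999.14, chr19:10486125-10503558, minus strand), the substrate adaptor that holds NRF2 for degradation, had the lowest F value of the 9. It gave 5269, 4510.2 and 4741 in WT, 3871, 4256 and 4590.1 in CRISPR Control, and, among the clones, 5089.6, 4982 and 4969 (KO 1) and 4309, 4623 and 4878 (KO 2). CRISPR Control had the lowest mean, but its highest library overlapped the WT libraries, and only KO 1 stood wholly above it. The log2 fold change of CRISPR Control against WT was -0.19 (adjusted p 0.0453, SE 0.08), at the edge of the threshold, and it was lost in 8 of the 12 fits that left out a library, with values from -0.25 to -0.13. KO 1 exceeded CRISPR Control by 0.25 (adjusted p 0.0103, SE 0.08) by limma. Against WT, KO 1 and KO 2 gave 0.05 (adjusted p 0.632) and -0.07 (adjusted p 0.457), and neither passed the test. An annotated gene without a symbol overlaps KEAP1 on the same strand.

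GCLC and GCLM encode the catalytic and the modifier subunit of glutamate-cysteine ligase, the enzyme of the rate-limiting step of glutathione synthesis, and the subunits behaved differently. GCLC (ENSG00000001084.13, chr6:53497341-53616970, minus strand) gave 818, 777 and 912 in WT, 1149.6, 1256 and 1149 in CRISPR Control, and, among the clones, 829.7, 869 and 892 (KO 1) and 879.7, 836 and 884 (KO 2). The CRISPR Control libraries were above the 9 others, and WT, KO 1 and KO 2 overlapped. CRISPR Control had 1.42 times the WT mean, with a log2 fold change of 0.51 (adjusted p 4.49e-05, SE 0.08) by limma, while KO 1 and KO 2 differed from WT by 0.05 (adjusted p 0.681) and 0.06 (adjusted p 0.59). GCLC-AS1 and LINC01564 overlap GCLC on the opposite strand.

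GCLM (ENSG00000023909.10, chr1:93885199-93909456, minus strand) was the member that was lower in both deficient lines and did not pass the test in CRISPR Control. It gave 1119, 1608 and 1295 in WT, 1404, 1612 and 1509 in CRISPR Control, and, among the clones, 971, 889 and 889.6 (KO 1) and 814, 705 and 661 (KO 2). All 6 deficient libraries lay below all 6 competent libraries, KO 2 lay below KO 1, and WT and CRISPR Control overlapped. WT itself was spread, with an SD of 248 around a mean of 1341. KO 1 held 68.3% of the WT mean and KO 2 54.2%, with log2 fold changes of -0.53 (adjusted p 0.00105, SE 0.11) and -0.87 (adjusted p 2.62e-06, SE 0.11) by limma. CRISPR Control against WT was 0.18 (adjusted p 0.18, SE 0.11), and without WT replicate 2, the highest WT library, it passed the test at 0.32 (adjusted p 0.0181). Between the clones, KO 2 was lower than KO 1 at -0.34 (adjusted p 0.0229, SE 0.11), a call that was lost with equal library totals (adjusted p 0.123), with no trend in the variance model (adjusted p 0.0669) and without KO 1 replicate 1, KO 2 replicate 2 or KO 2 replicate 3, where values were -0.30, -0.32 and -0.27.

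HMOX1 (ENSG00000100292.18, chr22:35380361-35394214, plus strand) encodes haem oxygenase 1, which breaks haem down to biliverdin, iron and carbon monoxide. Its rise in CRISPR Control was larger than the difference from WT of any other member in any line. In the clones it moved less than GCLM. It gave 1273, 1142 and 1267 in WT, 7060.2, 8326 and 8974 in CRISPR Control, and, among the clones, 925, 967 and 951 (KO 1) and 938, 982 and 991 (KO 2). Each CRISPR Control library was several times every other library, and each deficient library lay below each WT library. CRISPR Control had 6.62 times the WT mean, with a log2 fold change of 2.72 (adjusted p 4.8e-15, SE 0.08) by limma. KO 1 and KO 2 held 77.2% and 79.0% of WT, with -0.37 (adjusted p 0.00195, SE 0.08) and -0.34 (adjusted p 0.0023, SE 0.08). The clones did not differ from each other past the threshold (0.03, adjusted p 0.785). No annotated gene overlaps HMOX1. By the F test over the 4 lines HMOX1 ranked 85 of 15987 tested genes.

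NQO1 (ENSG00000181019.13, chr16:69706996-69726668, minus strand), a quinone reductase that spares quinones from redox cycling, followed HMOX1 at a smaller scale. It gave 3452, 3341 and 3243 in WT, 5252, 5890.1 and 5795 in CRISPR Control, and, among the clones, 2793, 2852 and 2847 (KO 1) and 3299, 3358 and 3479 (KO 2). CRISPR Control stood above all other libraries, KO 1 below all others, and KO 2 overlapped WT. The log2 fold change against WT was 0.75 (adjusted p 1.85e-08, SE 0.07) in CRISPR Control and -0.24 (adjusted p 0.00773, SE 0.07) in KO 1 by limma, and in KO 2 it was 0.01 (adjusted p 0.869). KO 2 exceeded KO 1 by 0.25 (adjusted p 0.00476). An annotated gene without a symbol overlaps NQO1 on the opposite strand.

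TXNRD1 (ENSG00000198431.18, chr12:104215779-104350307, plus strand), the cytosolic thioredoxin reductase, had the highest counts of the set and separated all 4 lines. It gave 7166, 7574 and 7431 in WT, 15465, 14558 and 14437 in CRISPR Control, and, among the clones, 5324, 5323 and 5162 (KO 1) and 8704, 8222 and 8391 (KO 2). No library of any line overlapped another line, and the order was KO 1, WT, KO 2 and CRISPR Control from low to high. CRISPR Control had 2.01 times the WT mean, with a log2 fold change of 1.00 (adjusted p 1.18e-10, SE 0.06) by limma. KO 1 was lower than WT at -0.49 (adjusted p 4.93e-06, SE 0.06) and KO 2 higher by 0.19 (adjusted p 0.0135, SE 0.06). That call for KO 2 was lost without WT replicate 1 (adjusted p 0.0511) and without KO 2 replicate 1 (adjusted p 0.0508). The difference between the clones was 0.68 (adjusted p 7.18e-08, SE 0.06). EID3 lies within TXNRD1 on the same strand.

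SRXN1 (ENSG00000271303.2, chr20:646615-653200, minus strand), sulfiredoxin, which reactivates overoxidised peroxiredoxins, went the other way in CRISPR Control. It gave 269, 241 and 229 in WT, 183, 166 and 195 in CRISPR Control, and, among the clones, 197, 218 and 261 (KO 1) and 233, 254 and 259 (KO 2). CRISPR Control held the 3 lowest libraries, and the 3 other lines overlapped. CRISPR Control against WT was -0.44 (adjusted p 0.00715, SE 0.13) by limma. KO 1 and KO 2 differed from CRISPR Control by 0.30 (adjusted p 0.0446) and 0.46 (adjusted p 0.00398), of which the former was lost in 8 of the 12 fits that left out a library, with values from 0.20 to 0.40, and both with quantile normalization (adjusted p 0.088 and 0.0669). Neither clone differed from WT past the threshold, at -0.14 (adjusted p 0.443) and 0.02 (adjusted p 0.923). An annotated gene without a symbol overlaps SRXN1 on the same strand, and its part in these counts was not tested.

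OSGIN1 (ENSG00000140961.14, chr16:83931311-83966332, plus strand), an oxidative stress induced growth inhibitor, was higher in CRISPR Control and KO 2 and lower in KO 1. It gave 204, 215 and 212 in WT, 345, 381 and 454 in CRISPR Control, and, among the clones, 173, 159 and 143 (KO 1) and 379, 459 and 492 (KO 2). WT and KO 1 lay apart from each other and from the other lines, and CRISPR Control and KO 2 overlapped. CRISPR Control had 1.87 times the WT mean, KO 2 2.11 times and KO 1 0.753 times. Log2 fold changes against WT were 0.89 (adjusted p 1.18e-05, SE 0.13), 1.06 (adjusted p 1.19e-06, SE 0.13) and -0.41 (adjusted p 0.0175, SE 0.13) in the same order by limma. The last call was lost without WT replicate 3 (adjusted p 0.0513) and without KO 1 replicate 3 (adjusted p 0.0829). MLYCD overlaps OSGIN1 on the same strand.

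GPX2 (ENSG00000176153.13, chr14:64939152-64942746, minus strand), a glutathione peroxidase of the gut epithelium, was barely detected. It had 1 read in each WT library, 2, 4 and 0 in CRISPR Control, and, among the clones, 2, 2 and 0 (KO 1) and 3, 6 and 0 (KO 2). Since a count of 0 allows up to 3 reads, no difference was detectable at this depth. CHURC1 overlaps GPX2 on the opposite strand.

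**Figure D2:**
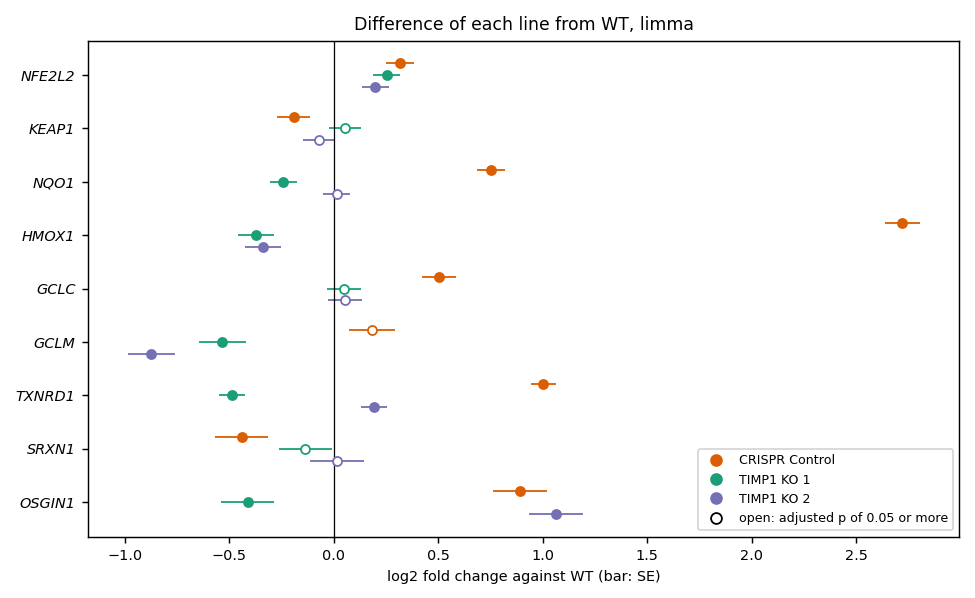
Log2 fold change against WT (x axis, log2(normalised count + 1) scale) of the 9 tested genes in CRISPR Control, KO 1 and KO 2 by limma, with bars for SE and open points for an adjusted p of 0.05 or more. HMOX1 in CRISPR Control, at 2.72, lies apart, TXNRD1 and OSGIN1 lie on opposite sides of 0 in the KO lines, and the KO points of GCLM lie at -0.53 and -0.87.

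Compared with CRISPR Control instead of WT, the deficient lines were lower in most of the set. KO 1 differed from CRISPR Control in 8 of the 9 genes (63.0% of all tested genes), with KEAP1 and SRXN1 higher (31.7%) and NQO1, HMOX1, GCLC, GCLM, TXNRD1 and OSGIN1 lower (31.3%). KO 2 differed in 6 of the 9 (67.7%), with SRXN1 higher (33.3%) and NQO1, HMOX1, GCLC, GCLM and TXNRD1 lower (34.4%). By the ratio of means, HMOX1 was 8.57-fold lower in KO 1 and 8.37-fold lower in KO 2 than in CRISPR Control, TXNRD1 2.81-fold and 1.76-fold, and NQO1 1.99-fold and 1.67-fold. The medians of the 9 log2 fold changes were -0.72 for KO 1 and -0.45 for KO 2, and those of all tested genes 0.00 and -0.01. The sign for TXNRD1 in KO 2 depended on the control, at 0.19 against WT and -0.81 against CRISPR Control.

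With the lines pooled by genotype, the mean of the deficient lines was lower than that of the competent lines in 5 of the 9 genes (65.9% of all tested genes), and higher in 0 of the 9 by limma (33.0% lower and 32.9% higher over all tested genes). At an unadjusted p under 0.05, and with edgeR or DESeq2 on recovered reads, 0 of the 9 were higher as well. The 5 genes were HMOX1 at -1.71 (adjusted p 1.06e-14, SE 0.06), GCLM at -0.79 (adjusted p 5.26e-08, SE 0.08), TXNRD1 at -0.65 (adjusted p 1.89e-10, SE 0.04), NQO1 at -0.49 (adjusted p 2.6e-08, SE 0.05) and GCLC at -0.20 (adjusted p 0.00531, SE 0.06). Only HMOX1 and GCLM had all 6 deficient libraries below all 6 competent ones. For HMOX1 the competent means themselves lay far apart, at 1227 in WT and 8120 in CRISPR Control, against 948 in KO 1 and 970 in KO 2. For GCLC, KO 1 and KO 2 did not differ from WT past the threshold, as given above. The KO 2 mean was not below the WT mean for NQO1 (3378.5 against 3345.5) or TXNRD1 (8438.9 against 7390.4). These p-values use the spread between libraries within lines, not the spread between the lines of a genotype. With equal library totals and with quantile normalization 8 of the 9 genes were called, since KEAP1 and NFE2L2 became higher in both and SRXN1 higher in the former and OSGIN1 lower in the latter.

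The clones differed from each other in 4 of the 9 genes (38.2% of all tested genes). NQO1, TXNRD1 and OSGIN1 were higher in KO 2 (18.1%) and GCLM was lower (20.1%). OSGIN1 differed most, at 2.80 times the KO 1 mean in KO 2 and a log2 fold change of 1.48 (adjusted p 4.04e-08, SE 0.13) by limma. Over all 4 lines the limma F test called 9 of the 9 genes, beside 80.4% of all tested genes, from HMOX1 (adjusted p 2.44e-16) to KEAP1 (adjusted p 0.0381).

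The study took as TIMP1-dependent the genes called against WT in each clone but not in CRISPR Control. With the added condition of a common direction, 1 of the 9 genes, GCLM, was in this intersection, beside 10.2% of all tested genes. Without WT replicate 2 there was none, since CRISPR Control then differed from WT. HMOX1, which was lower than WT in both clones, was left out by its rise in CRISPR Control. By contrast, the libraries of CRISPR Control lay above the 9 others in 4 of the 9 genes (NQO1, HMOX1, GCLC and TXNRD1), beside 18.6% of all tested genes, and below the 9 others in 1 (SRXN1), beside 17.5%. This way of counting was chosen after the values were seen.

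Levels between genes were compared as normalised counts per kilobase of annotated exon, a scale on which the models' lengths enter. In WT the order was KEAP1 (1355 ± 109, mean ± SD, n = 3), NQO1 (1126 ± 35.2), TXNRD1 (1101 ± 30.9), HMOX1 (532 ± 32.1), NFE2L2 (261 ± 7.85), GCLM (247 ± 45.6), SRXN1 (97.4 ± 8.27), GCLC (97.0 ± 7.98), OSGIN1 (37.8 ± 1.03) and GPX2 (0.745 ± 0.0881). The neighbours NQO1 and TXNRD1, NFE2L2 and GCLM, and SRXN1 and GCLC lay within an SD of each other. In CRISPR Control HMOX1 led the order at 3521 ± 422, followed by TXNRD1 at 2209 ± 83.8 and NQO1 at 1900.3 ± 116, and KEAP1 came after them at 1186 ± 100.7. KEAP1 led in KO 1 at 1403 ± 18.5 and in KO 2 at 1288 ± 79.8, where TXNRD1 at 1258 ± 36.4 was within an SD of it. The exons of NFE2L2 sum to 14975 bases over all annotated transcripts, which lowers its level on this scale.

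The wider pathway was described with 82 further genes in 7 groups, of which 74 were tested. CRISPR Control differed from WT in 52 of the 74 (53.4% of all tested genes), with a median log2 fold change of -0.10. Of these, 22 were higher, beside 27.2% of all tested genes, and 30 lower, beside 26.3%. KO 1 differed from WT in 37 (21 higher, 16 lower), beside 35.5% of all tested genes, and KO 2 in 53 (28 higher, 25 lower), beside 55.0%, with medians of 0.04 each. Against CRISPR Control, KO 1 differed in 58 (34 higher, 24 lower), beside 63.0%, and KO 2 in 57 (32 higher, 25 lower), beside 67.7%. KO 2 differed from KO 1 in 40 (23 higher, 17 lower), beside 38.2%, and the deficient from the competent lines in 56 (32 higher, 24 lower), beside 65.9%. Of the 74 genes, 4 had a line mean under 10 normalised counts, namely AKR1B10 and SOD3, which reached the level for testing only through the deficient lines, and ALDH1A1 and ABCC2, which were under it in deficient lines. The wider list therefore held more genes lower than higher in CRISPR Control against WT, unlike the 9 genes above. The difference between these lists was not tested.

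**Figure D3:**
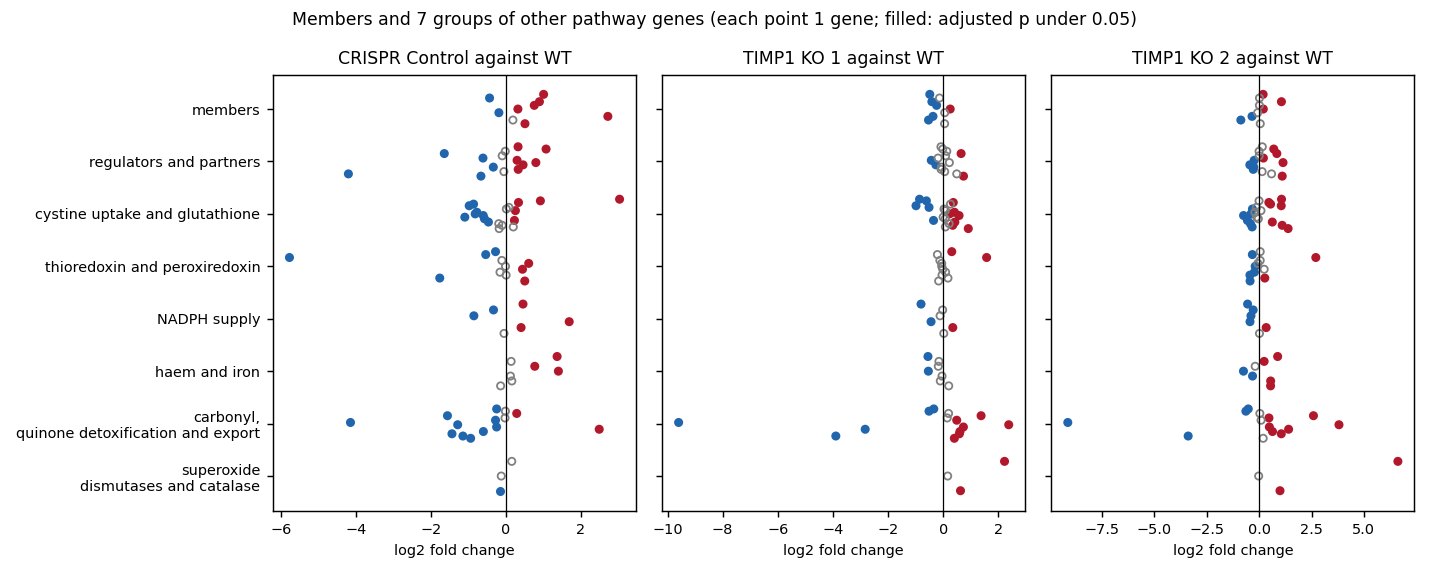
Log2 fold change (x axes) of the 9 tested members and of the tested genes of 7 further pathway groups against WT, each point 1 gene, filled where the adjusted p was under 0.05, red for higher and blue for lower. In CRISPR Control the members lie mostly to the right of 0 with HMOX1 at 2.72, whereas carbonyl and quinone detoxification and export lies mostly to the left, with ALDH1A1 at -4.16.

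Among the regulators and partners, the repressors BACH1 and BACH2 were lower in CRISPR Control than in WT. Of 14 genes, 11 differed between CRISPR Control and WT (53.4% of all tested genes), 6 higher (CUL3, MAFF, MAFG, SQSTM1, GSK3B and TRIM16, beside 27.2%) and 5 lower (MAFK, BACH1, BACH2, NFE2L3 and DPP3, beside 26.3%). BACH1, the repressor that shares the element with NRF2, gave 701, 790.0 and 749 in WT, 497, 436 and 473 in CRISPR Control, and, among the clones, 1253, 1356 and 1125 (KO 1) and 1711, 1534 and 1567 (KO 2). The 3 CRISPR Control libraries were the lowest and the 6 deficient libraries the highest, with log2 fold changes against WT of -0.67 (adjusted p 4.77e-06, SE 0.09) in CRISPR Control, 0.73 (adjusted p 3.22e-06, SE 0.09) in KO 1 and 1.10 (adjusted p 6.23e-09, SE 0.09) in KO 2 by limma. BACH2, its relative, gave 241, 216 and 261 in WT, 6.05, 13.0 and 20.9 in CRISPR Control, and, among the clones, 348, 331 and 329 (KO 1) and 361, 388 and 335 (KO 2). NFE2L3, an NRF2-related factor, gave 1969, 1994 and 1920.2 in WT, 601, 649 and 623 in CRISPR Control, and, among the clones, 3295, 2738 and 3217 (KO 1) and 3409, 3409.8 and 3763 (KO 2). For both genes the CRISPR Control libraries were the lowest. CRISPR Control lay below WT for BACH2 at -4.21 (adjusted p 1.12e-10) and for NFE2L3 at -1.65 (adjusted p 3.18e-12). SQSTM1, which encodes p62, a protein that binds KEAP1 and sends it to autophagy, was higher than WT in CRISPR Control (1.07, adjusted p 5.06e-09) and in KO 2 (0.70, adjusted p 1.34e-06), and in KO 1 it was -0.02 (adjusted p 0.894). Against WT, 4 of the 14 differed in KO 1 (BACH1 and NFE2L3 higher, MAFG and GSK3B lower), beside 35.5% of all tested genes, and 9 in KO 2 (5 higher, 4 lower), beside 55.0%. BACH2 was in neither count, at 0.49 (adjusted p 0.152) in KO 1 and 0.59 (adjusted p 0.0589) in KO 2 by limma, although the 6 deficient libraries lay above the 3 of WT. It passed the test in both clones by edgeR (adjusted p 0.00921 and 0.000777), by DESeq2 (adjusted p 0.00106 and 1.07e-05), with only the compared lines in the fit (adjusted p 0.00112 and 0.00025), with a pseudocount of 10, and without CRISPR Control replicate 1 or 3.

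For cystine uptake and glutathione use, 13 of 19 genes differed between CRISPR Control and WT (53.4% of all tested genes), 5 higher (27.2%) and 8 lower (26.3%). SLC7A11, the light chain of the cystine and glutamate exchanger and a known NRF2 target, gave 121, 131 and 147 in WT, 1312, 1098 and 902 in CRISPR Control, and, among the clones, 65.9, 81.0 and 71.6 (KO 1) and 287, 258 and 294 (KO 2). CRISPR Control lay highest, KO 2 above WT and KO 1 below it, with no overlap between lines. Its log2 fold change was 3.03 (adjusted p 1.72e-12, SE 0.14) in CRISPR Control, -0.86 (adjusted p 8.56e-05, SE 0.14) in KO 1 and 1.07 (adjusted p 3.06e-06, SE 0.14) in KO 2 by limma. MGST1, a microsomal glutathione transferase, gave 132, 135 and 104 in WT, 57.0, 66.4 and 61.5 in CRISPR Control, and, among the clones, 61.6, 48.4 and 77.7 (KO 1) and 237, 267 and 265 (KO 2). CRISPR Control and KO 1 lay below WT, and KO 2 above it. GLRX, glutaredoxin, was higher than WT in KO 1 (0.91, adjusted p 9.24e-05) and KO 2 (1.38, adjusted p 2.65e-07) and stood at -0.18 (adjusted p 0.312) in CRISPR Control. Of the 19, 12 differed from WT in KO 1 (7 higher, 5 lower), beside 35.5% of all tested genes, and 13 in KO 2 (7 higher, 6 lower), beside 55.0%.

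Of 11 thioredoxin and peroxiredoxin genes, 7 differed between CRISPR Control and WT, 3 higher and 4 lower, beside 53.4% of all tested genes. TXNIP, which binds thioredoxin and limits glucose uptake, gave 538, 588 and 568 in WT, 11.2, 4.74 and 14.3 in CRISPR Control, and, among the clones, 1711, 1772 and 1565 (KO 1) and 3668, 3754 and 3629 (KO 2). It was nearly lost in CRISPR Control and rose in both deficient lines, with no overlap between any lines. The log2 fold changes against WT were -5.79 (adjusted p 9.6e-14, SE 0.22), 1.57 (adjusted p 1.6e-05, SE 0.22) and 2.7 (adjusted p 5.97e-09, SE 0.22) in CRISPR Control, KO 1 and KO 2 by limma. PRDX2, a cytosolic peroxiredoxin, was lower than WT in CRISPR Control at -1.77 (adjusted p 3.89e-11), while its relative PRDX1, a known NRF2 target, was higher by 0.50 (adjusted p 3.89e-05). In KO 1, 2 of the 11 differed from WT, both higher, beside 18.0% of all tested genes higher and 35.5% in either direction. In KO 2, 7 did, 2 higher and 5 lower (55.0%).

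NADPH supply and iron handling each held genes that were high in CRISPR Control. ME1, malic enzyme, gave 1158, 1240.1 and 1193 in WT, 3723, 4194 and 3667 in CRISPR Control, and, among the clones, 888, 887 and 867 (KO 1) and 907, 889 and 859.6 (KO 2). Its CRISPR Control libraries were the highest and its deficient libraries the lowest, with log2 fold changes against WT of 1.69 (adjusted p 8.13e-13, SE 0.07), -0.44 (adjusted p 0.000118, SE 0.07) and -0.43 (adjusted p 6.49e-05, SE 0.07) in CRISPR Control, KO 1 and KO 2 by limma. TKT, transketolase, was higher in CRISPR Control by 0.45 (adjusted p 8.01e-05) and PGD, phosphogluconate dehydrogenase, lower at -0.86 (adjusted p 2.66e-09). Of the 6 NADPH genes 5 differed between CRISPR Control and WT (3 higher, 2 lower), 3 between KO 1 and WT (1 higher, 2 lower) and 5 between KO 2 and WT (1 higher, 4 lower), where the shares of all tested genes were 53.4%, 35.5% and 55.0%.

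The ferritin subunits FTH1 and FTL, which store the iron that haem oxygenase releases, rose in CRISPR Control. FTH1 gave 10599.9, 9975 and 10511 in WT, 23313, 26588 and 32843 in CRISPR Control, and, among the clones, 6984, 6729 and 7707 (KO 1) and 5874, 6465 and 6198 (KO 2). All CRISPR Control libraries were above and all deficient libraries below WT, with log2 fold changes of 1.4 (adjusted p 5.55e-10, SE 0.10), -0.54 (adjusted p 0.000212, SE 0.10) and -0.75 (adjusted p 2.44e-06, SE 0.10) in CRISPR Control, KO 1 and KO 2 by limma. FTL was higher in CRISPR Control by 0.77 (adjusted p 4.7e-07), and in KO 1 and KO 2 it was -0.18 (adjusted p 0.112) and -0.19 (adjusted p 0.0697). Ferritin genes have many processed copies in the genome and reads could be shared with them. Of 7 haem and iron genes, 3 were higher in CRISPR Control than in WT, beside 27.2% of all tested genes, and the other 4 did not pass the test. In KO 1, 2 were lower, beside 17.5%. In KO 2, 6 differed, 4 higher (27.1%), among them BLVRA at 0.55, and 2 lower (27.9%). In either direction the shares of all tested genes were 53.4%, 35.5% and 55.0% in that order.

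Most of the detoxification and export genes were lower in CRISPR Control than in WT. Of 14 genes, 12 differed (53.4% of all tested genes), 2 higher (27.2%) and 10 lower (26.3%). Against WT, 7 of the 14 were higher and 5 lower in KO 1, where the shares of all tested genes were 18.0% and 17.5%, and 7 were higher and 4 lower in KO 2, where they were 27.1% and 27.9%. ALDH1A1, a retinaldehyde dehydrogenase, gave 761, 797 and 762 in WT, 39.7, 54.6 and 35.2 in CRISPR Control, and, among the clones, 0, 0 and 0 (KO 1) and 1.66, 0 and 0 (KO 2). CRISPR Control held 5.58% of the WT mean, and against a floor of 3 reads per library KO 1 was at least 250.3-fold lower than WT for ALDH1A1, and the same bound for KO 2 was at least 285-fold lower. ABCG2, a drug efflux pump, gave 121, 125 and 173 in WT, 771, 753 and 816 in CRISPR Control, and, among the clones, 23.8, 16.9 and 15.9 (KO 1) and 378, 356 and 370.3 (KO 2), with log2 fold changes against WT of 2.49 (adjusted p 2.33e-10, SE 0.16) in CRISPR Control, -2.83 (adjusted p 9.13e-11, SE 0.16) in KO 1 and 1.41 (adjusted p 5.72e-07, SE 0.16) in KO 2 by limma. ABCC3, an organic anion transporter, was lower than WT in CRISPR Control at -1.45 (adjusted p 2.25e-11) and higher in KO 1 and KO 2 by 0.59 (adjusted p 1.11e-05) and 1.06 (adjusted p 1.98e-09).

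Of the antioxidant enzymes that act on superoxide and peroxide, CAT, catalase, gave 4229.8, 4340.2 and 4439 in WT, 3864, 3912 and 3914 in CRISPR Control, and, among the clones, 6421, 6955 and 6712 (KO 1) and 8814, 8859 and 8282 (KO 2). Each deficient library was above each competent library, KO 2 was above KO 1, and CRISPR Control was just under WT. The log2 fold changes against WT were 0.63 (adjusted p 2.35e-07, SE 0.06) in KO 1, 1.00 (adjusted p 1.71e-10, SE 0.06) in KO 2 and -0.15 (adjusted p 0.0447, SE 0.06) in CRISPR Control by limma, and the last was lost in 10 of the 12 fits that left out a library, with values from -0.17 to -0.14. SOD1 had no difference from WT past the threshold in any of the 3 lines, at -0.13 (adjusted p 0.282), 0.16 (adjusted p 0.214) and -0.02 (adjusted p 0.869). KO 1 lay above CRISPR Control for SOD1 by 0.29 (adjusted p 0.0146) by limma, although the F test over the lines did not call it. That call did not hold in every fit that left out a library, where values ran from 0.19 to 0.38. In the intersection were 4 of the 74 genes, a smaller share than the 10.2% of all tested genes, with GLRX, GPX3 and SOD3 higher and NQO2 lower in both clones. SOD3, an extracellular superoxide dismutase, averaged 181 normalised counts in KO 2 but 8.11 in KO 1, with 1.06 and 1.05 in WT and CRISPR Control, so it was tested only because of KO 2 and its call carries no weight. NQO2, a relative of NQO1, stood at -0.52 in KO 1, -0.63 in KO 2 and -0.02 in CRISPR Control against WT. Counted as for the members, the CRISPR Control libraries were above the 9 others in 15 of the 74 genes, beside 18.6% of all tested genes, and below them in 22, beside 17.5%.

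**Figure D4:**
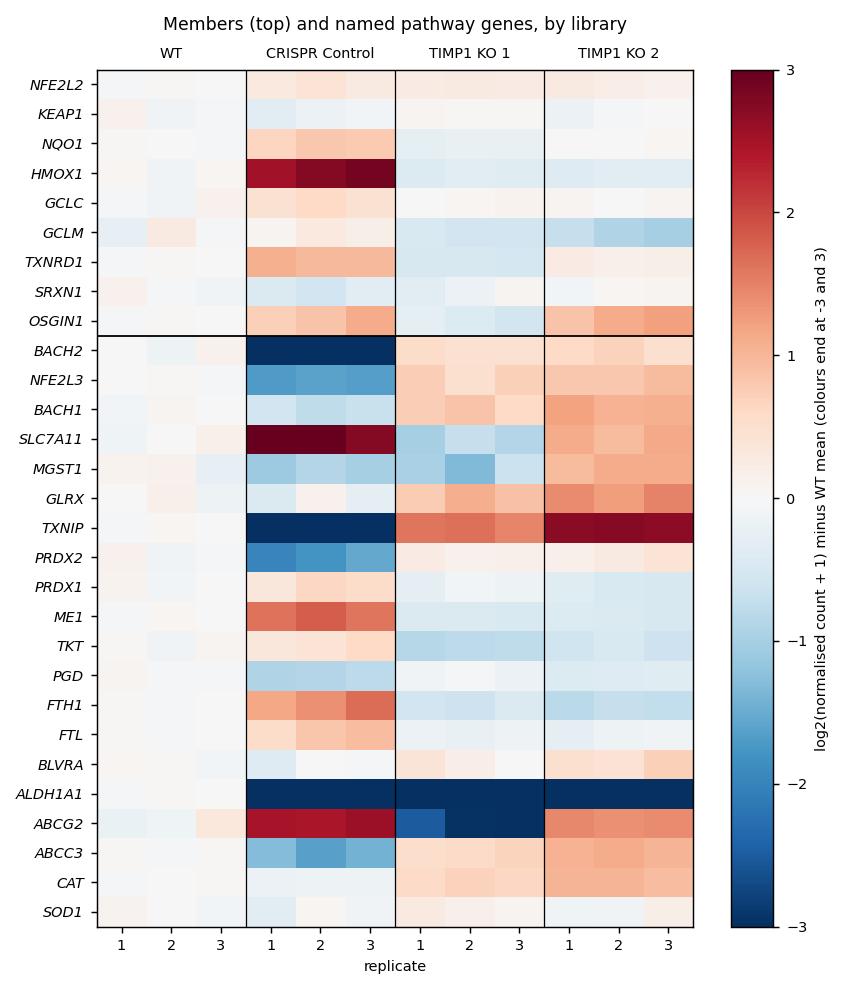
Colour shows log2(normalised count + 1) minus the WT mean for the 9 tested members (above the line) and 20 named pathway genes (below it), with 1 column per library grouped by line, and colours end at -3 and 3. HMOX1, SLC7A11, ME1 and ABCG2 are red in the 3 CRISPR Control columns, BACH2 and TXNIP are dark blue there, and GCLM is blue in the 6 KO columns.

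Genes with a pattern over the 12 libraries most like that of HMOX1, the member with the highest F value, were found by Pearson correlation of log2 values among 11642 tested genes with a mean of at least 100. They were DOK4 (r = 0.994), TNFRSF11B (r = 0.992), GNAI1 (r = 0.991), ME1 (r = 0.991) and CHAMP1 (r = 0.990). All had their highest mean in CRISPR Control, which follows from choosing them by likeness to HMOX1. TNFRSF11B averaged 1368 normalised counts in CRISPR Control but 2.63 in WT, 0 in KO 1 and 1.46 in KO 2. It reached the mean of 100 only through CRISPR Control, so its r carries no weight. ME1 is the single gene among them that was on the pathway list. NQO1 correlated with HMOX1 at 0.969, GCLC at 0.938, TXNRD1 at 0.892, GCLM at 0.700, NFE2L2 at 0.468, OSGIN1 at 0.454, KEAP1 at -0.627 and SRXN1 at -0.777. For NFE2L2 the most alike were RPS27L (r = 0.957), IDH1 (r = 0.956), ARPC5 (r = 0.954), CHMP4C (r = 0.944) and FPGT (r = 0.944). The 12 points fall into 4 lines, so these values describe the order of 4 line means more than 12 independent points.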

How the data were processed

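RNA of 12 MIA PaCa-2 libraries, 4 lines with 3 replicates each, was measured, and the titles of the samples gave each library its line and replicate number. The authors trimmed reads with Cutadapt and used STAR for mapping to GRCh38. They obtained counts for each gene from featureCounts, and DESeq2 size factors put the libraries on a common scale. What was deposited is therefore a signal of scaled read counts, called normalised counts here. The scaling removes a shift shared by most genes. The annotation release and the strand setting are not given in the sources used here. A blank line (1) and 4 columns holding the authors' line means were left aside.

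Values were whole multiples of a step per library, and dividing by it returned whole reads for 100% of positive values within a tolerance of 0.01 reads. Depth was 26908701 to 36093563 reads in genes, and a count of 0 allows up to 3 reads, for counting error only. Coordinates are of GENCODE on GRCh38, to which 99.1% of gene identifiers matched without their version.

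Genes averaging 10 normalised counts or more were tested, 15987 in all with 99.9% of reads. They were fitted with limma 3.58.1 (R 4.3.3) on log2(normalised count + 1) over all 12 libraries, with 4 line means, eBayes with a trend, two-sided tests and Benjamini-Hochberg adjustment over all tested genes at a threshold of 0.05. The lines shared 1 spread per gene. Replicates of CRISPR Control differed most from each other. The chi-square per gene between a pair of libraries, relative to counting error, was 18.0 to 29.9 there. In the other lines it was 4.59 to 16.6. Log2 fold changes on this scale understate the change of low genes. The script was tested on simulated data. The 6 pairs of lines, the mean of the deficient against the mean of the competent lines, an F test and the intersection were computed. edgeR 4.0.16 and DESeq2 1.42.0 on recovered reads were alternatives, beside other pseudocounts, filters and scalings, fits of the compared lines only, a replicate block and leaving out each library.

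The genes and lists were chosen with earlier results of these data known. Named genes were all members, TIMP1, from each of the 7 further groups the 3 genes with the largest difference past the threshold in any pair at a mean of at least 100, the regulators and partners, and the 5 genes most like HMOX1 and like NFE2L2. SQSTM1, GPX3, SOD3, NQO2, AKR1B10, ABCC2, GSTM1, GGT1 and AKR1C genes were named after their values were seen. The sample numbers were not taken to pair libraries, because deviations from the line means of libraries with the same number correlated at -0.129 to 0.160 over the 18 pairs, and 2 of these were over 0.1.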

Additional observations from a re-analysis of the deposited data

Results flagged for a closer look

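The KO lines moved in opposite directions from WT, each past the limma threshold, in 5 of the genes named, and KO 2 differed from KO 1 in the same genes. TXNRD1 differed between the clones by 0.68 on the log2 scale, with -0.49 in KO 1 and 0.19 in KO 2 against WT. OSGIN1 differed by 1.48, with -0.41 and 1.06. SLC7A11, the cystine transporter subunit, differed by 1.93, with -0.86 and 1.07. MGST1 differed by 2.04, with -0.99 and 1.06. ABCG2, the efflux pump, differed by 4.24, with -2.83 and 1.41. Adjusted p-values of the difference between the clones ran from 4.4e-13 for ABCG2 to 7.18e-08 for TXNRD1, and KO 2 was higher in 3 of 3 libraries for each gene. Each KO line is 1 clone, so clone and guide cannot be told apart.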

How the results depend on the processing

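The 16 counts given for the members and for the wider list stayed within 1.5 times their value under the pseudocounts of 0.5 and 10. The same held with no filter, with a minimum mean of 50, without the variance trend and by edgeR or DESeq2. It also held with only the compared lines in the fit, except that no F test was run there. Of all tested genes, that fit called 7087 for KO 1 against WT, where the main fit called 5682. For CRISPR Control against WT it called 7608, where the main fit called 8541, so the shares of all tested genes depend on the fit. With equal library totals and with quantile normalization the members called between deficient and competent lines went from 5 to 8 each, and the former moved the median of all genes to 0.11 for KO 2 against CRISPR Control. A minimum absolute log2 fold change of 1 left 0, 1 and 2 members against WT for KO 1, KO 2 and CRISPR Control, 3 and 2 for the clones against CRISPR Control, 1 for KO 2 against KO 1, 1 for deficient against competent lines and 0 in the intersection. In the same order it left 7, 14, 16, 27, 24, 9 and 16 genes of the wider list. Leaving out a library gave 3 to 5 members for KO 2 against WT, with the lowest count without WT replicate 1 or KO 2 replicate 1, and 0 to 1 in the intersection, with 0 without WT replicate 2.

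The fit with a replicate block, which is not backed by the check of the numbers, called 7 members between CRISPR Control and WT and 7 between KO 1 and CRISPR Control. KEAP1 (adjusted p 0.0535) and SRXN1 (adjusted p 0.0527) lost their calls. KEAP1 in CRISPR Control against WT also lost its call with no filter, without the trend and with only the compared lines in the fit (adjusted p 0.0914, 0.0848 and 0.108), and SRXN1 in KO 1 against CRISPR Control with no filter and with only the compared lines (adjusted p 0.067 and 0.0934). The causes of these losses were not tested.

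Signs reversed only for differences that passed the test neither in the main fit nor in the alternative. With equal library totals and quantile normalization, NFE2L2 gave 0.0501 and 0.0165 (KO 2 against KO 1), KEAP1 0.0242 and 0.0358 (KO 2 against WT), SOD1 0.0742 and 0.125 (KO 2 against WT), FTL 0.0939 and 0.126 (KO 2 against KO 1) and MGST1 0.00955 and 0.0352 (KO 1 against CRISPR Control). Quantile normalization alone turned SRXN1 to -0.20 (KO 2 against WT) and ALDH1A1 to -0.28 (KO 2 against KO 1). MGST1 was 0.0554 with edgeR, 0.0376 with DESeq2 and 0.000433 with a pseudocount of 10, and FTL 0.00700 and 0.00547 with edgeR and DESeq2. Leaving out a library, values ran from -0.00788 to 0.0371 for NQO1 and -0.0357 to 0.0823 for SRXN1 (KO 2 against WT), -0.00092 to 0.114 for GCLC (KO 1 against WT), -0.023 to 0.0308 for GCLC, -0.0106 to 0.0281 for ME1 and -0.0469 to 0.0432 for FTL (KO 2 against KO 1), -0.17 to 0.167 for MGST1 (KO 1 against CRISPR Control) and -0.121 to 0.0337 for SOD1 (KO 2 against WT).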

Other observations

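Several pathway genes fell under the level needed for testing but were not evenly low. GSTM1, a glutathione transferase, had normalised counts of 40.7, 28.2 and 34.3 in WT and 0 in all 9 libraries of the edited lines, where a count of 0 allows up to 3 reads per library. GSTM genes are close copies of each other and reads could be shared among them. GGT1, which cleaves extracellular glutathione, had 2.26, 5.45 and 2.86 in WT, 1.73, 1.19 and 3.30 in CRISPR Control, 8.64, 13.5 and 6.18 in KO 1 and 27.3, 14.0 and 25.2 in KO 2. AKR1C1, an aldo-keto reductase often read as an NRF2 target, had 24.9, 11.8 and 11.4 in WT and between 0 and 7.06 in the 9 libraries of the edited lines, and AKR1C2 and AKR1C3 stayed between 0 and 3.03 in the 12 libraries. These values were not tested.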
